A study of Mus with 12 samples.

Results

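The apolipoprotein L genes Apol8, Apol10b, Apol10c-ps, Apol11a and Apol11b were followed in mouse blood across 4 treatment groups. They were picked by name, after earlier results from these libraries had shown some of them at high levels in 1 group, and all 5 names were found among the 25247 genes of the expression table. Their levels and differences between groups are therefore given as a description, without a test.

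The blood came from BALB/c females, 6 weeks of age when the study began and bled on day 30, with 3 libraries in each group. The study had 6 mice per group and does not state how the 3 libraries were drawn from them. That each library is 1 mouse is therefore an assumption. Solvent mice received the vehicle, a mixture of acetone and olive oil, on the skin. DNCB mice were sensitized with 1% and challenged with 0.5% 2,4-dinitrochlorobenzene, a contact sensitizer that produces skin lesions resembling atopic dermatitis. The scMSC and scivMSC mice received the same DNCB schedule and, in the course of the challenges, repeated doses of 2000000 mesenchymal stem cells from human umbilical cord, each given as 100 µL under the skin in scMSC, and as 50 µL under the skin plus 50 µL into the tail vein in scivMSC. The treated mice thus received human cells, no group received the cells without DNCB, and none received them by vein alone. Whether human cells were still present on day 30 is not stated. The labels name no litter, cage, extraction batch or sequencing date.

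Apolipoprotein L proteins are named after human APOL1, which is carried on high-density lipoprotein and lyses trypanosomes, but most members of the family stay inside cells. They hold amphipathic helices that associate with membranes and lipids, and they have been linked to membrane traffic, autophagy and cell death. Several are induced by interferons and other inflammatory signals, and in the mouse the family lies largely in 1 cluster of similar genes.

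Library depth ranged from 52179764 to 65139421 summed counts. The counts were heaped at multiples of 4, so that about 4 counts stood for 1 fragment, and 12 counts (3 fragments) were taken as the floor below which a level was not read. Haemoglobin transcripts made up 91.3 to 95.6% of all FPKM (fragments scaled to transcript length and library depth), as the blood label would have it. All 3 scivMSC libraries had fewer genes at 4 counts or more (14974, 11806 and 13159) than the 9 other libraries (15195 to 17350), and scivMSC replicate 2 had the fewest. The part of this in the Apol levels was not tested.

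Apol11b (ENSMUSG00000091694, minus strand, chr15:77633946-77643286) was the member with the highest level in every library. Its FPKM was 4.52, 1.54 and 2.48 in Solvent replicates 1 to 3. In the same order it was 3.14, 2.35 and 6.28 in DNCB and 12.65, 3.35 and 6.03 in scMSC. In scivMSC it was 26.65, 34.82 and 33.85. All 3 scivMSC libraries lay above the other 9 libraries, as 5.41% of all tested genes did against DNCB and 3.82% against scMSC, while the Solvent, DNCB and scMSC libraries overlapped.

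The mean Apol11b level was 2.85 ± 1.52 FPKM in Solvent (SD, n = 3), 3.92 ± 2.08 in DNCB, 7.35 ± 4.79 in scMSC and 31.8 ± 4.47 in scivMSC. The order of the means was thus Solvent, DNCB, scMSC and scivMSC, and only the last step was larger than the spread between libraries. The scivMSC mean was 8.1 times the DNCB mean and 4.33 times the scMSC mean. Leaving out scivMSC replicate 2 gave a scivMSC mean of 30.2 FPKM. The scMSC mean rested in large measure on replicate 1, and was 4.69 FPKM without it.

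**Figure D1:**
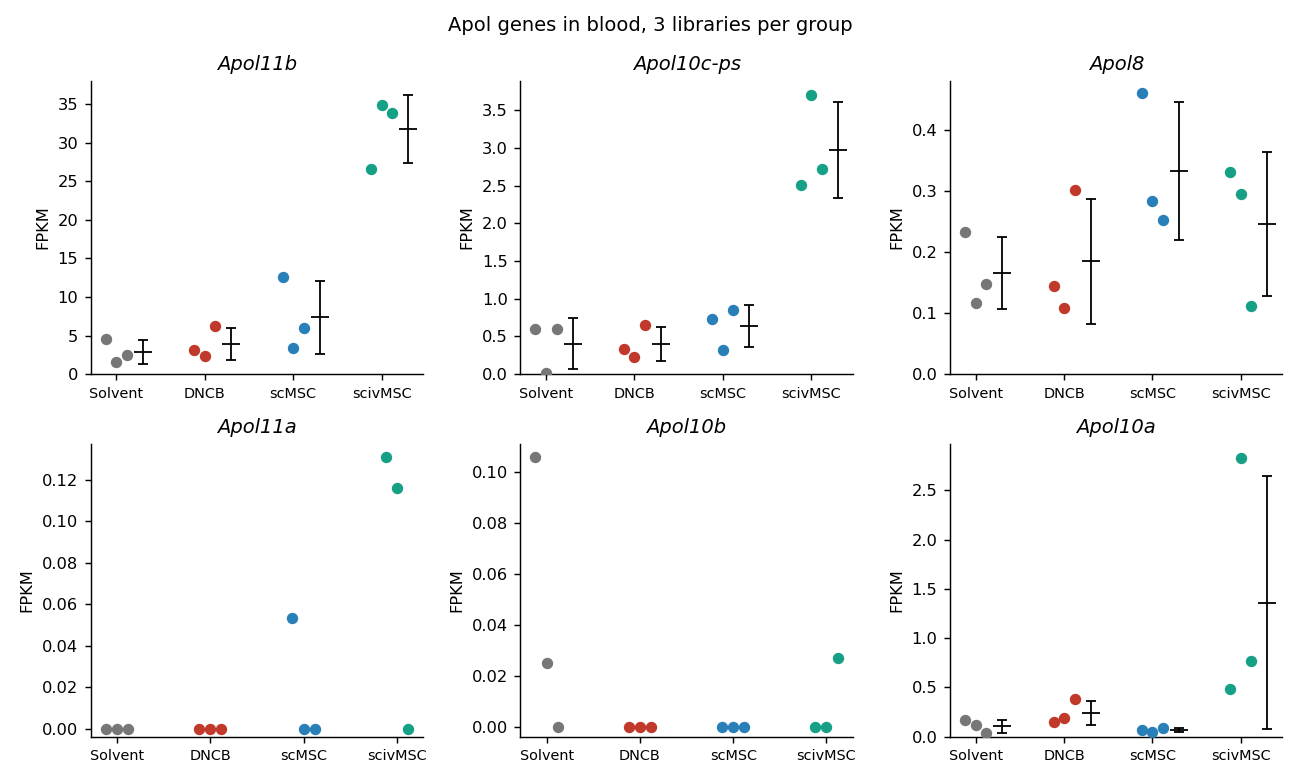
FPKM of the 5 chosen Apol genes and of Apol10a in each library (points, 3 per group), with group mean and SD in black. Means are not drawn for Apol11a and Apol10b, which had 0 counts in 9 of the 12 libraries. Vertical scales differ between panels, and scivMSC lies apart from the other groups for Apol11b (26.65 to 34.82 FPKM), Apol10c-ps and Apol10a.

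Apol10c-ps (ENSMUSG00000116383, minus strand, chr15:77656001-77659841), annotated as a transcribed unprocessed pseudogene, was likewise highest in scivMSC, at a lower level. It stood at 0.60, 0.01 and 0.60 FPKM in Solvent and at 0.33, 0.23 and 0.65 FPKM in DNCB. It stood at 0.73, 0.32 and 0.86 FPKM in scMSC and at 2.50, 3.70 and 2.73 FPKM in scivMSC. Again the scivMSC libraries were above all others and the remaining groups overlapped.

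The Apol10c-ps group means were 0.402 ± 0.339, 0.401 ± 0.221, 0.637 ± 0.279 and 2.98 ± 0.639 FPKM (SD, n = 3) in Solvent, DNCB, scMSC and scivMSC. The counts behind them were small outside scivMSC, at 14 to 38 in DNCB and 20 to 48 in scMSC, against 134 to 191 in scivMSC. In Solvent replicate 2 the gene had 1 count, below the floor. In the 11 other libraries the Apol10c-ps level was 5.78 to 24.2% of the Apol11b level, with medians of 10.3, 9.64 and 9.39% in DNCB, scMSC and scivMSC and values of 13.2 and 24.2% in Solvent replicates 1 and 3. Without scivMSC replicate 2, its highest library, the scivMSC mean of Apol10c-ps was 2.61 FPKM.

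Apol8 (ENSMUSG00000056656, minus strand, chr15:77747798-77757003) was detected in all 12 libraries at low levels and did not separate scivMSC from the other groups. Its FPKM was 0.23, 0.12 and 0.15 in Solvent and 0.14, 0.11 and 0.30 in DNCB. It was 0.46, 0.28 and 0.25 in scMSC and 0.33, 0.29 and 0.11 in scivMSC. All scMSC values were above all Solvent values, and the other groups overlapped, with 19 to 75 counts per library. The share of all genes that separate scMSC from Solvent in this way was not computed, so nothing is read from it.

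The Apol8 group means were 0.165 ± 0.0595 FPKM in Solvent, 0.185 ± 0.102 in DNCB, 0.332 ± 0.113 in scMSC and 0.245 ± 0.118 in scivMSC (SD, n = 3). Relative to Apol11b in the same library, Apol8 had a median of 0.846% in scivMSC against 4.17 to 5.93% in the other groups. Fitted without a filter on low values, Apol8 had log2 differences of 0.38 (SE 0.81) for scivMSC against DNCB, -0.42 (SE 0.80) against scMSC and 0.54 (SE 0.81) against Solvent with libraries scaled by their total counts. With TMM scaling, which centres the bulk of genes, these were 1.72, 0.52 and 2.16, and the last was called higher (adjusted p under 0.05 and over 2-fold), as were 7.46% of all genes. The direction against scMSC thus turned with the scaling.

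Apol11a (ENSMUSG00000091650, plus strand, chr15:77508271-77518051) had 0 counts in 9 libraries, among them all Solvent and DNCB libraries. It had 6 counts in scMSC replicate 1, and 15, 13 and 0 counts in scivMSC. Only scivMSC replicates 1 and 2 were above the floor, by 3 counts or fewer, so no ratio of its group means is given. Apol10b (ENSMUSG00000050014, minus strand, chr15:77583819-77596125) had 17, 4 and 0 counts in Solvent, 0 in every DNCB and scMSC library, and 0, 0 and 4 in scivMSC. Its 1 value above the floor was in a Solvent library, and 12 counts of Apol10b correspond to 0.0747 to 0.0809 FPKM, so differences under that level were not detectable at this depth.

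Summed over the 5 members, the level was 5.46, 1.70 and 3.22 FPKM in Solvent, 3.61, 2.68 and 7.23 in DNCB, 13.9, 3.96 and 7.14 in scMSC, and 29.6, 38.9 and 36.7 in scivMSC. The scivMSC libraries again did not overlap with the others. Apol11b gave 76.9 to 92.2% of this sum, so the summed level describes mainly that gene. The mean sum of 35.1 ± 4.87 FPKM (SD, n = 3) in scivMSC was 7.78 times that of DNCB, 4.21 times that of scMSC and 10.1 times that of Solvent.

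In a fit across all genes (edgeR's quasi-likelihood test, libraries scaled by their total counts), only genes with at least 1 FPKM in at least 3 libraries were kept. This left 5527 genes. Apol11b and Apol10c-ps passed that filter, and Apol8, Apol10b and Apol11a did not. Apol10c-ps passed through its 3 scivMSC values alone, so it had to differ, and without any 1 of these libraries it no longer passed.

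For scivMSC against DNCB the fitted log2 difference was 3.01 (SE 0.51) for Apol11b and 2.86 (SE 0.81) for Apol10c-ps, ranks 9 and 13 from the highest of the 5527 genes. For scivMSC against scMSC it was 2.12 (SE 0.49) and 2.20 (SE 0.78), ranks 13 and 12. The 2 comparisons share the scivMSC libraries. Both genes were called higher (adjusted p under 0.05 and over 2-fold) in each of these comparisons, where 1.43% and 0.344% of all tested genes were called higher, but these are the contrasts with which the genes were chosen and nothing is read from the count. Without the filter Apol10c-ps was not called against scMSC.

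For DNCB against Solvent the fitted log2 difference was 0.46 (SE 0.48) for Apol11b and -0.01 (SE 0.78) for Apol10c-ps. For scMSC against DNCB it was 0.89 (SE 0.48) and 0.66 (SE 0.78). Neither gene was called in either comparison, where 15.6% and 1.27% of tested genes were called higher, and in both the groups overlapped. Without scMSC replicate 1 the Apol11b difference between scMSC and DNCB was 0.25.

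The size of these differences depended on how the libraries were scaled. The median log2 difference over all tested genes with total-count scaling was -1.53 for scivMSC against DNCB. Against scMSC it was -0.87. With TMM scaling these medians were 0.04 and -0.01. The Apol11b difference then became 4.69 and 3.26, and that of Apol10c-ps 4.57 and 3.33, so the direction held under both scalings and the values with total counts were the smaller ones. Between scMSC and DNCB the Apol11b difference became 1.43, which was not called, where 8.74% of tested genes were called higher. Without the filter it was 1.25 with TMM scaling and was called, as were 2.08% of all genes. Between scMSC and Solvent it was 1.35 with total counts, not called, and 1.89 with TMM scaling, called, as were 7.29% of tested genes.

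The members lie close together. Of 14 Apol genes in the table, 13 are on chromosome 15, and 12 of these fall within 369 kb from Apol7a to Apol8 (chr15:77388219-77757003). Apol11b and Apol10c-ps are neighbours on the same strand, 12714 bases apart, with other Apol genes at lower level on both sides. Because the family is made of similar genes, and neither the handling of shared reads nor the use of strand in counting is stated, the division of reads between members is uncertain.

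Of the 9 other Apol genes, Apol10a reached 0.5 FPKM in some library, and it too was at its highest in scivMSC. Its FPKM was 0.17, 0.11 and 0.04 in Solvent and 0.15, 0.19 and 0.38 in DNCB. It was 0.07, 0.05 and 0.09 in scMSC and 0.48, 2.83 and 0.77 in scivMSC, where replicate 2, the library with the fewest detected genes, was far above the others. The scivMSC libraries did not overlap with any other group. Of the 5527 genes that passed the filter, which do not include Apol10a, 5.41% lay higher without overlap against DNCB and 3.82% against scMSC. The share over all genes was not computed.

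Apol10a did not pass the filter, and in the fit of all 25247 genes without it the log2 difference was 2.48 (SE 0.72, adjusted p = 0.00806, edgeR) for scivMSC against DNCB. Against scMSC it was 4.25 (SE 0.79, adjusted p = 0.00148, edgeR), a size that rests on 12, 9 and 17 counts in scMSC, at or under the floor in replicates 1 and 2. In that fit 0.681% and 0.420% of all genes were called higher in these comparisons. The call against DNCB was lost without scivMSC replicate 2 (log2 difference 1.37, adjusted p = 0.286) and without DNCB replicate 1 (2.23, adjusted p = 0.0592). Against scMSC the difference was 3.14 to 4.66 when any 1 library was left out and stayed called. With limma on log2(FPKM + 1) the difference was 0.80 against DNCB (adjusted p = 0.0838) and 1.01 against scMSC (adjusted p = 0.139), so neither was called there.

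The other 8 Apol genes stayed under 0.5 FPKM in every library, with a highest value of 0.294 FPKM in Apol7e, and none of the 8 was called in the 4 comparisons. They include Apol9a and Apol9b, known as interferon-inducible members.

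**Figure D2:**
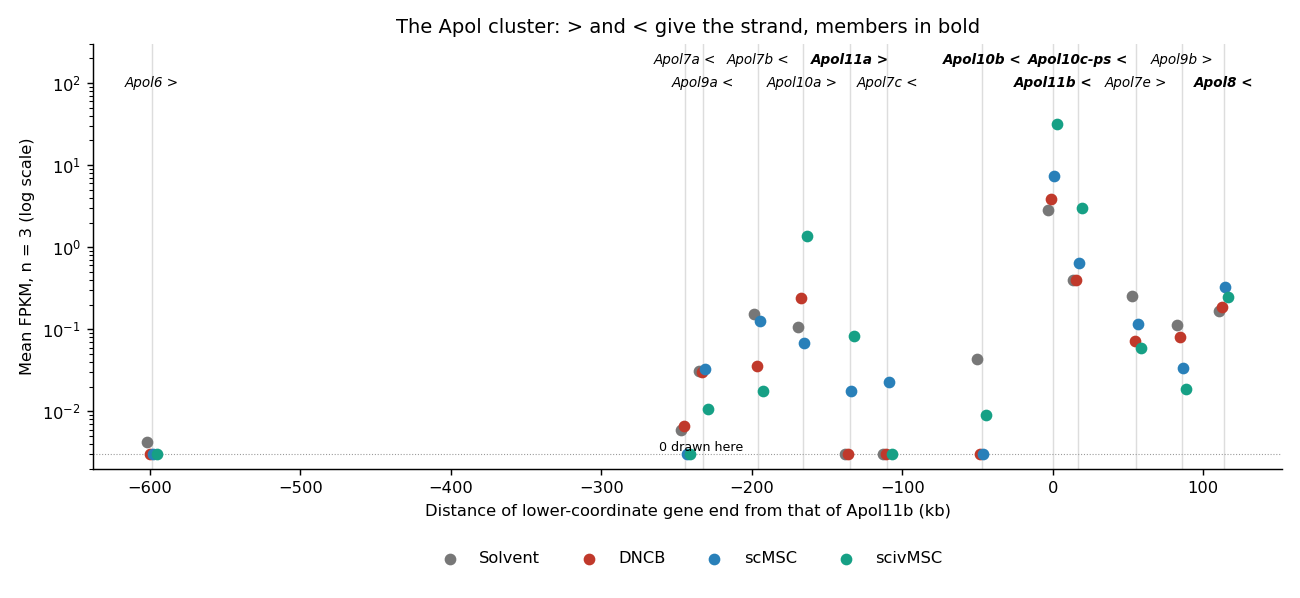
Mean FPKM (n = 3, logarithmic axis) of the 13 Apol genes on chromosome 15, coloured by group. Genes are placed by the distance of their transcription start from that of Apol11b in kb. This start is the lower coordinate on the plus strand and the higher coordinate on the minus strand. The axis label names the lower-coordinate gene end, which is not what was drawn. Values of 0 are drawn on the dotted line. In scivMSC, Apol11b, Apol10c-ps and Apol10a stand above the other groups, as does Apol11a at levels near the floor of 12 counts, while Apol8, Apol7e and Apol9b at the right do not.

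Within 300 kb of the outermost members there were 18 genes that were no members, and 4 of them passed the filter. Myh9, which encodes a non-muscle myosin heavy chain and lies beside Apol8, had a log2 difference of -1.68 (SE 0.27, adjusted p = 7.73e-05, edgeR) for scivMSC against DNCB. Eif3d, a translation initiation factor subunit, had -1.30 (SE 0.44, adjusted p = 0.0157). Both were called lower with total counts, and with TMM scaling neither was called, at -0.07 and 0.23.

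Txn2, the mitochondrial thioredoxin, stood at 0.17 (SE 0.36, adjusted p = 0.686) and Gm22107 at 0.96 (SE 0.63, adjusted p = 0.185) with total counts, and at 1.85 and 2.74, both called, with TMM. The Gm22107 values rest on 11, 18 and 14 counts in DNCB and 16, 29 and 31 in scivMSC, near the floor of 12 counts, so their size is uncertain. With either scaling the log2 difference of each of the 4 neighbours was below those of Apol11b and Apol10c-ps. These 2 members were picked with their levels known, so nothing is read from this order.

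The interferon-stimulated genes, a class to which several Apol genes belong, were set beside the members. The part of interferon in the Apol levels was not tested. Of 32 listed genes 23 were tested, and for scivMSC against DNCB none was called higher and 16 were called lower, where 62.0% of all tested genes were called lower. The median log2 difference was -2.08, beside -1.53 over all tested genes. With TMM scaling 5 were called higher and 7 lower, with a median of -0.39, beside 20.6% and 18.9% of all tested genes. When any 1 library was left out, none was called higher and 14 to 16 were called lower with total counts.

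Isg15, a ubiquitin-like modifier, differed by 0.50 (adjusted p = 0.14, edgeR) between scivMSC and DNCB, and Rsad2, the antiviral protein viperin, by 0.37 (adjusted p = 0.219). Ifi27l2a was lower, with a log2 difference of -2.67 (adjusted p = 0.00081). The summed level of the list had medians of 225, 236, 169 and 203 FPKM in Solvent, DNCB, scMSC and scivMSC, and its ranges overlapped in all 4 groups.

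The lipoprotein apolipoproteins and their receptors share the name but not the sequence family. Of 18 listed genes 4 were tested, and all 4 were called lower for scivMSC against DNCB with total counts, with a median of -3.05, and 2 with TMM scaling, with a median of -1.54, where 62.0% and 18.9% of all tested genes were called lower. Apoe, the apolipoprotein of remnant particles, had a log2 difference of -1.80 (adjusted p = 0.00188, edgeR). Apobr, a macrophage receptor for apolipoprotein B48, had -3.86 (adjusted p = 2.05e-05), and Abcg1, a cholesterol exporter, had -2.25 (adjusted p = 0.000324).

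In bulk blood, fewer cells of a type and less RNA per cell cannot be told apart, and so the markers of the cell types in blood were set beside the Apol genes. The summed level of the 18 late erythroid genes in the table, of 19 listed, had medians of 5960, 5392, 5240 and 6143 FPKM in Solvent, DNCB, scMSC and scivMSC, with overlapping ranges. The early erythroid and reticulocyte list had medians of 261, 236, 248 and 347 FPKM. Its lowest scivMSC value of 316 FPKM was above the highest of any other group, 313 FPKM. Bnip3l, 1 of the 10 genes of this list, alone had means of 253, 242, 221 and 314 FPKM in the same order. The sum thus describes mainly that gene. The platelet list had medians of 516, 770, 842 and 909 FPKM.

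Of the late erythroid genes, 15 were tested, and for scivMSC against DNCB none was called in either direction with total counts, where 63.4% of all tested genes were called, mostly lower. The median log2 difference was 0.47. With TMM scaling all 15 were called higher, with a median of 2.15, beside 20.6% of all tested genes, and with total counts 0 to 5 were called higher when 1 library was left out. Alas2, the first enzyme of haem synthesis in red cells, had means of 4432 FPKM in DNCB, 4293 in scMSC and 4625 in scivMSC.

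Of the early erythroid genes, 8 were tested for scivMSC against DNCB, 2 were called higher and 1 lower with total counts, and 7 higher and 1 lower with TMM scaling. Of all tested genes 1.43% were called higher and 62.0% lower with total counts, and 20.6% and 18.9% with TMM scaling. Gata1, the erythroid transcription factor, had a log2 difference of 2.13 (SE 0.33, adjusted p = 4.84e-05, edgeR), and Itga4, an integrin subunit also found on leukocytes, had -2.68 (SE 0.37, adjusted p = 1.98e-05). Against scMSC, Gata1 differed by 0.22 (SE 0.31, adjusted p = 0.596, edgeR) with total counts and by 1.26 (adjusted p = 0.00712) with TMM scaling. In that comparison 0 of 8 early and 1 of 15 late erythroid genes were called higher with total counts, where 0.344% of tested genes were. With TMM scaling 5 of 8 and 15 of 15 were called higher, with medians of 1.20 and 1.66, where 13.1% of tested genes were.

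The leukocyte lists were lower in scivMSC than in DNCB with total counts, as 62.0% of all tested genes were. All 12 neutrophil genes were called lower for scivMSC against DNCB, with a median log2 difference of -4.12, as were all 6 tested monocyte genes and all 9 tested B cell genes. Of 10 T cell genes 3 were called lower, and their median was -0.90. With TMM scaling the counts called lower were 12 neutrophil, 4 monocyte, 0 B cell and 0 T cell genes. Natural killer cells had 2 of 4 tested genes called lower, the eosinophil, basophil and mast cell list 2 of 4 lower and 1 higher, and platelets and endothelium 0 of 11 and 0 of 2 in either direction, with total counts. With TMM scaling 11 of 11 platelet and 2 of 2 endothelial genes were called higher, with medians of 2.07 and 2.18, beside 20.6% of all tested genes. In the natural killer cell list 1 gene was then called higher and 0 lower, and in the eosinophil, basophil and mast cell list 2 higher and 1 lower. No marker was at 0 in all libraries in any of these lists.

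On the log2 scale with no pseudocount, the summed Apol level differed by 3.08 between scivMSC and DNCB and by 2.25 between scivMSC and scMSC. Divided by the summed late erythroid level of the same library, it differed by 2.95 and 2.06. On the log2(FPKM + 1) scale the differences were 2.79 and 2.09, and 3.22 and 2.28 with haemoglobin left out of the FPKM total. The part of cell composition in the Apol difference was not tested.

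**Figure D3:**
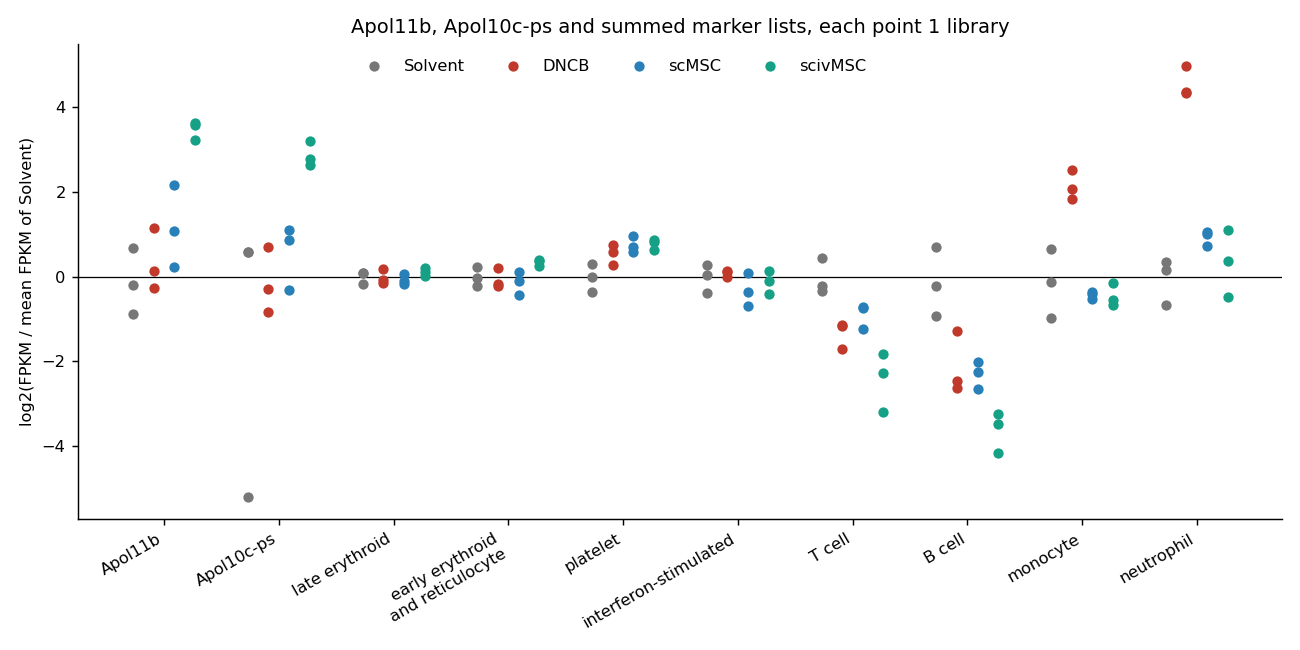
Level of Apol11b, Apol10c-ps and 8 summed marker lists in each library, as log2 of the ratio to the Solvent mean, coloured by group. The scivMSC points of both Apol genes lie well above those of the late erythroid, early erythroid and platelet lists, while neutrophil and monocyte genes peak in DNCB. The Apol genes were picked with their levels known, so nothing is read from their place above the lists. The late and early erythroid sums are mainly Alas2 and Bnip3l and do not show how single genes such as Gata1 differ.

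Apol11b and Apol10c-ps moved together across libraries, also within groups. Pearson's r of their log2(FPKM + 1) values was 0.954 over the 12 libraries and Spearman's rho was 0.930. Without the 2 libraries farthest from the median, scivMSC replicates 2 and 3, r was 0.912, and after subtraction of group means it was 0.734. Both values of a library share its depth and its RNA, and the groups lie apart, so these figures are a description.

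The genes whose pattern over the 12 libraries was most like the summed Apol level were taken from 4998 genes, over which the median r was -0.637 and 5 genes reached 0.9. Tspan33, a tetraspanin of developing red cells, was first with r = 0.926 (rho = 0.895, and r = 0.922 without the 2 farthest libraries). The next were the histone gene H4c9 (r = 0.916), the ganglioside GM3 synthase gene St3gal5 (0.911), the spermine oxidase gene Smox (0.910) and the scaffold protein gene Mpp2 (0.900). Blvrb, which encodes a biliverdin reductase abundant in red cells, followed with 0.899, then Cmas, which activates sialic acid, with 0.895. Abcb4, a phospholipid transporter, had 0.893, and Smap1 and Tmod1, the latter a capping protein of the red cell membrane skeleton, had 0.890 each.

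The mean level of Tspan33 was 4.32 ± 0.965 FPKM in Solvent, 4.12 ± 1.05 in DNCB, 6.82 ± 1.84 in scMSC and 9.51 ± 0.678 in scivMSC (SD, n = 3). Cmas stood at 17.4 ± 6.28, 16.9 ± 5.63, 17.6 ± 6.25 and 38.2 ± 7.01 FPKM in the same order. After subtraction of group means, r with the Apol sum was 0.816 for Tspan33 and 0.830 for Cmas, and 0.313 for H4c9, whose likeness thus lay mostly between groups.

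**Figure D4:**
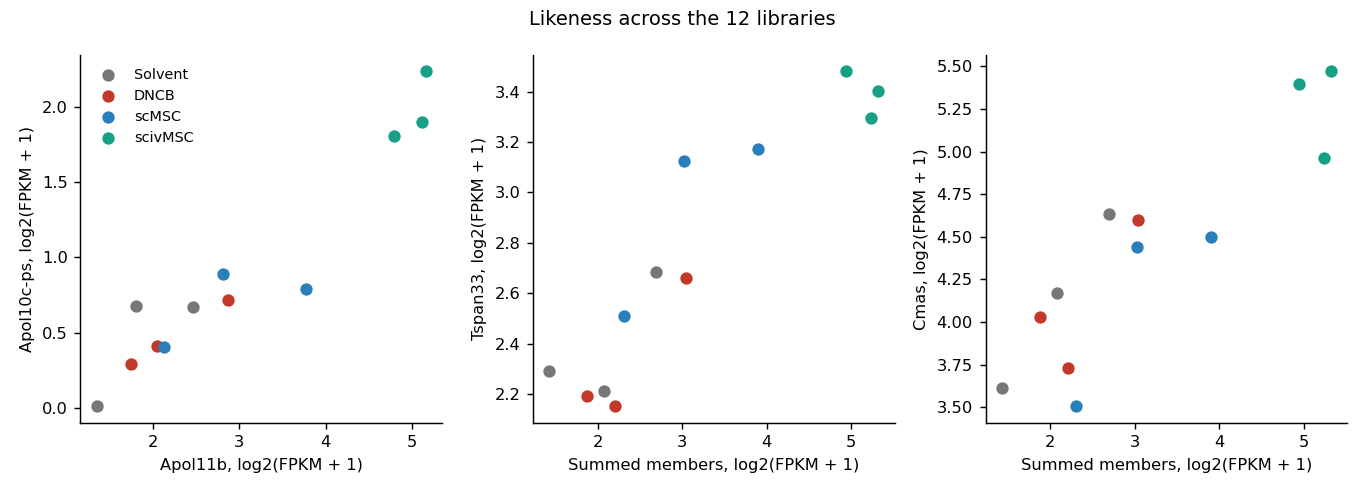
Each point is 1 library, coloured by group, on log2(FPKM + 1) axes. Left, Apol10c-ps against Apol11b (r = 0.954). Middle and right, Tspan33 (r = 0.926) and Cmas (r = 0.895) against the summed level of the 5 members, with the scivMSC libraries at the upper right in each panel.

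Among summed marker lists, r with the summed Apol level over the 12 libraries was 0.813 for early erythroid and reticulocyte genes, 0.622 for late erythroid genes, 0.613 for endothelial genes and 0.510 for platelet genes. It was 0.069 for interferon-stimulated genes and 0.164 for the eosinophil, basophil and mast cell list. It was -0.321 for neutrophil, -0.395 for monocyte, -0.591 for natural killer cell, -0.731 for T cell and -0.730 for B cell genes, and -0.698 for the lipoprotein apolipoproteins. All of these share the libraries and the haemoglobin-dominated total. The early and late erythroid sums are mainly Bnip3l and Alas2, so their r values describe mainly those genes.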

How the data were processed

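Total RNA from blood was sequenced, and the groups were taken from the labels. The authors deposited a table of FPKM values and gene counts for 12 libraries. Per the labels' processing notes, Bowtie 0.12.2, HISAT2 2.0, StringTie 1.3.0 and the build mm 8 were named, with no role or order. The gene coordinates, however, overlapped the RefSeq GRCm38.p6 genes for 96.3% of 21414 matched symbols and for 14 of 14 Apol genes, so coordinates are given as GRCm38. The deposited counts were treated as estimated counts, since they were heaped at multiples of 4, with 29% of values from 1 to 12 equal to 4. FPKM followed the counts within 0.017 on the log2 scale over 871 genes.

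Counts were tested with edgeR 4.0.16 in R 4.3.3 (total-count scaling, 4 group means, all 12 libraries, Benjamini-Hochberg adjustment), at adjusted p under 0.05 and over 2-fold. The p-values measure the spread between the 3 libraries of a group, which is a spread between mice only if each library is 1 mouse. Alternatives were TMM scaling, no filter, DESeq2 1.42.0, limma 3.58.1 on log2(FPKM + 1) and log2(FPKM + 0.1), a replicate block and leaving out each library. On simulated counts for scivMSC against DNCB (5527 genes, 200 changed 8-fold), edgeR recovered 198 with 9 false calls. DESeq2 recovered 198 with 30 false calls. The simulated counts were not heaped at multiples of 4, and the changed genes were drawn from those with higher mean counts. The number of false calls with heaped counts or under a shift of most genes was not tested. In the data, with total counts, 62.0% of tested genes were called lower for scivMSC against DNCB. The median log2 difference there was -1.53. The floor covers counting error only, while the SDs and SEs include the spread between libraries.

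Members and gene lists were chosen with earlier results of these data known. Named genes were the members, other Apol genes of at least 0.5 FPKM in some library, neighbours within 300 kb that passed the filter, the 3 tested genes of each list with the highest mean FPKM (a selection is printed) and the 10 genes most like the summed Apol level. Sequences were not analysed here.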

Additional observations from a re-analysis of the deposited data

How the results depend on the processing

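The count of genes called was 3506 for scivMSC against DNCB (1.43% of tested genes higher, 62.0% lower) and was 2180 with TMM scaling (1137 higher, 1043 lower), 5952 without a filter, 2232 with DESeq2 and 2004 with limma on log2(FPKM + 1). For scivMSC against scMSC it was 1701, and 994 with TMM scaling (722 higher, 272 lower), 1091 with DESeq2 and 330 with limma on log2(FPKM + 1). Leaving out 1 library gave 625 to 1423 genes between DNCB and Solvent, where 1133 were called with all (750 without Solvent replicate 2, and 665, 625 and 670 without DNCB replicates 1, 2 and 3). Between scMSC and DNCB, with 1445 called, it gave 618 to 1803 (618 without DNCB replicate 2, 841 without scMSC replicate 2). Between scivMSC and DNCB it gave 2599 to 3945, and between scivMSC and scMSC 519 to 2935 (519 and 740 without scMSC replicates 1 and 3, and 2935, 811 and 738 without scivMSC replicates 1, 2 and 3).

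The summed Apol difference on the log2(FPKM + 1) scale was 0.31 between DNCB and Solvent, 0.70 between scMSC and DNCB, 2.79 between scivMSC and DNCB, 2.09 between scivMSC and scMSC, 1.01 between scMSC and Solvent and 3.10 between scivMSC and Solvent, where libraries of 1 group had an SD of 0.60. Without 1 library these were -0.02 to 0.62, 0.29 to 1.09, 2.54 to 3.12, 1.70 to 2.50, 0.60 to 1.39 and 2.78 to 3.41. With TMM scaling the scivMSC differences were 4.24 against DNCB, 3.03 against scMSC and 4.44 against Solvent.

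Taken alone, in the order Apol8, Apol10b, Apol10c-ps and Apol11a, members differed by 0.07, 0.01, 1.50 and 0.11 between scivMSC and DNCB, -0.10, 0.01, 1.28 and 0.09 between scivMSC and scMSC, 0.19, -0.06, 0.24 and 0.03 between scMSC and Solvent and 0.09, -0.05, 1.52 and 0.11 between scivMSC and Solvent. For scMSC against DNCB, Apol10b gave 0.00 and Apol11a 0.03. These members are low or at 0, which the logarithm of FPKM + 1 compresses, and Apol8 against scMSC and Apol10b against Solvent had the opposite sign.

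Over 18 pairs of libraries with the same replicate number, deviations from the group mean correlated at -0.252 to 0.142 (median 0.022). Over 36 pairs with different numbers they correlated at -0.198 to 0.163 (median -0.008). Whether the numbers pair the samples is not stated, and these correlations cannot decide it. With a replicate block 1164, 1541, 3627 and 1922 genes were called in the 4 comparisons. The summed Apol differences with a block equal those given above by arithmetic, because every group holds each replicate number once, so they are no check. Counts at or near the floor of 12 limit what can be read of Apol10b and Apol11a, and leaving out any scivMSC library takes Apol10c-ps out of the filtered fit.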
